A study of Homo sapiens with 6 samples.

Results

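Chromatin remodellers of the SWI/SNF, ISWI, CHD and INO80 families were followed in ARPE-19, an established cell line from human retinal pigment epithelium, after exposure to an enzyme that makes hydrogen peroxide. The genes were chosen by symbol: SMARC genes of groups A to E, ARID genes, the numbered CHD genes, INO80 and its lettered subunits, and the BAZ genes. The rule matched 40 genes and 130 probe sets, of 18132 genes and 44988 probe sets with a single gene symbol in the series. Each gene was read from its brightest probe set, and 38 of the 40 were above the floor for testing, a mean log2 value of 4.64. ARID3C and CHD5 were under it, and ARID4A could not be read, since the annotation used here pairs its symbol with none of the single-symbol probe sets.

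The 3 h group comprised 3 arrays of cells treated for 3 h with 10 mU/ml glucose oxidase, which releases peroxide as it oxidises glucose. The 0 h group comprised 3 arrays of cells given no enzyme. Treatment followed transfection by 48 h. The design text gives a GFP plasmid for all cells, whereas the descriptions of the 3 h samples name GFP together with satellite alpha DNA, the repeat of centromeres. What was transfected may therefore also differ between the groups. A control group held for the same 3 h without enzyme is not among the labels, and the labels do not say whether replicates were separate cultures, so p-values may measure technical spread only.

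Remodellers use ATP to slide, evict or exchange nucleosomes and so open or close promoters, enhancers and sites of DNA repair. SWI/SNF complexes are built around either SMARCA4 or SMARCA2 and differ in their ARID subunit, which the non-canonical form lacks. ISWI motors space nucleosomes with BAZ partners, CHD3 and CHD4 drive the NuRD deacetylase complex, and INO80 acts in transcription, replication and repair.

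Array medians lay between 5.297 and 5.34. Pairs of 3 h arrays correlated across genes at 0.996 to 0.997, pairs of 0 h arrays at 0.997 to 0.998, and mixed pairs at 0.979 to 0.983. All 24 poly-A spike probe sets were lower on every 3 h array, with a median log2 change of -0.60, as were 17 of 18 hybridization spikes. The 5′ minus 3′ log2 difference of the actin control probe sets was -1.195 ± 0.06 at 3 h and -2.06 ± 0.07 at 0 h (SD, n = 3 each, two-sided exact permutation p = 0.1, the smallest that 3 against 3 arrays allow). For the GAPDH control probe sets that difference was -0.13 ± 0.04 at 3 h and -0.39 ± 0.05 at 0 h (SD, exact permutation p = 0.1). These differences accompany every comparison given here. Their part in the results was not tested, and array or RNA preparation and treatment cannot be told apart. Of 14 pigment epithelium markers 10 were above the floor. MITF, OTX2, KRT8 and KRT18 rose, SERPINF1 fell by 0.40 and the other 5 were not called, while RPE65, RLBP1, TYRP1 and LRAT were under it in both groups. Of the other lists, 4 of 7 blood and endothelial markers, 6 of 7 photoreceptor and neuronal markers and 4 of 6 mesenchymal markers with a probe set were above the floor. In that order 0, 0 and 1 of them rose and 0, 2 and 0 fell, and PTPRC, CD14 and CDH5 were under the floor in both groups. Their part in the results was not tested.

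The promoters of 4 genes are shown because these genes had large changes in opposite directions: ARID1A and SMARCA4 were higher at 3 h, BAZ2B and CHD9 lower. Each line gives the 250 bases before the outermost annotated start in RefSeq, build GRCh38.p14, read 5′ to 3′ on the gene's strand, with GC boxes (GGGCGG on either strand) in capitals. The positions are chr1:26695765-26696014 (plus strand) for ARID1A, chr19:10960780-10961029 (plus) for SMARCA4, chr2:159712443-159712692 (minus) for BAZ2B and chr16:53054741-53054990 (plus) for CHD9.
ARID1A: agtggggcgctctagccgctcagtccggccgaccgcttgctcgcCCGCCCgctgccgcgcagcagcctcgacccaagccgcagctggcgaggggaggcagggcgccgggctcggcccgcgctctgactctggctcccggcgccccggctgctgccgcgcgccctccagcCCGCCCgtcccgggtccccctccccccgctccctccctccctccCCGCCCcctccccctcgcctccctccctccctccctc
SMARCA4: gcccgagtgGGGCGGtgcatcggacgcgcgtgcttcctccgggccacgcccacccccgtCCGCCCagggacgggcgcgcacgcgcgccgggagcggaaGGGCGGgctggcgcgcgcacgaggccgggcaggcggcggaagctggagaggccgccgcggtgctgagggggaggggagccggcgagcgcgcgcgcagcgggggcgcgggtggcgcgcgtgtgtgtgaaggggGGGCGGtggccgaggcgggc
BAZ2B: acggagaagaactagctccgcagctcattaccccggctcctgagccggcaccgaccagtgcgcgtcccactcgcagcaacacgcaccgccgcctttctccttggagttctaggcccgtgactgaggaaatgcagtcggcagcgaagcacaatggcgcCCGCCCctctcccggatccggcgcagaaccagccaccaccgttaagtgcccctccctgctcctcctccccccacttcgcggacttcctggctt
CHD9: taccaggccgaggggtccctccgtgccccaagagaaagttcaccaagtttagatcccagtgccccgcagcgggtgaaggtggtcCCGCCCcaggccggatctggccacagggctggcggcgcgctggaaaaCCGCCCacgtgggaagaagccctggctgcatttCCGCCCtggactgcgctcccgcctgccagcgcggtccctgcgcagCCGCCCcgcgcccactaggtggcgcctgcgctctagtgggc

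ARID1A held 3 GC boxes, SMARCA4 held 4, BAZ2B held 1 and CHD9 held 4. The GC content was 80.4% for ARID1A, 82.4% for SMARCA4, 65.2% for BAZ2B and 70.4% for CHD9. An AP-1 site (TGANTCA) and the core of the antioxidant response element (TGACNNNGC) were found in none of the 4 windows, on either strand. CHD9 held 1 E-box (CACGTG), which overlaps a GC box. Of the 38 tested genes 30 matched the promoter table. A GC box was found in 4 of 6 genes that rose, 8 of 13 that fell and 7 of 11 that were not called. Over the series it was in 71.2% of genes called higher and 64.0% of those called lower. Its share was 66.2% of 10021 tested genes and 42.2% of all 27305 promoters. The AP-1 letters were in 1 of the 30 windows (3.33%), against 4.06% of tested genes and 6.57% of all promoters. The antioxidant core was in 2 (6.67%), against 12.1% and 11.1% in the same order, and the E-box in 1 (3.33%), against 8.76% and 6.46%. Across the 30 genes the change and the promoter GC content had a Spearman correlation of 0.00, against 0.15 over 10021 tested genes; genes on the same arrays are not independent, and both values are descriptions.

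At 3 h the remodeller genes were split. SMARCA4, ARID1A and SMARCC2 rose most, and BAZ2B, CHD9, CHD7 and CHD1 had the largest falls. Of 38 tested genes 8 rose, 17 fell and 13 were not called at an adjusted p under 0.05 (limma, adjusted over all 12221 genes tested). Over all tested genes 20.6% were called higher, 30.8% lower and 51.3% in either direction. On the brightest probe sets 21.1% of the remodeller genes rose, near the share of all genes, and 44.7% fell, above that of all genes. The median log2 change of the remodeller genes was -0.11, against -0.04 over all tested genes. These shares depend on the choice of probe set. With the mean of all probe sets 15 of the 38 were higher and 14 lower, against 3066 and 3419 of all 12221 genes. Wherever this mean is given, it includes probe sets of the gene that are under the floor. For 12 genes every 3 h array lay above every 0 h array, and for 18 below, against 24.8% and 35.7% of all tested genes. CHD6 was the only tested gene here whose 3 h mean was under the floor.

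**Figure D1:**
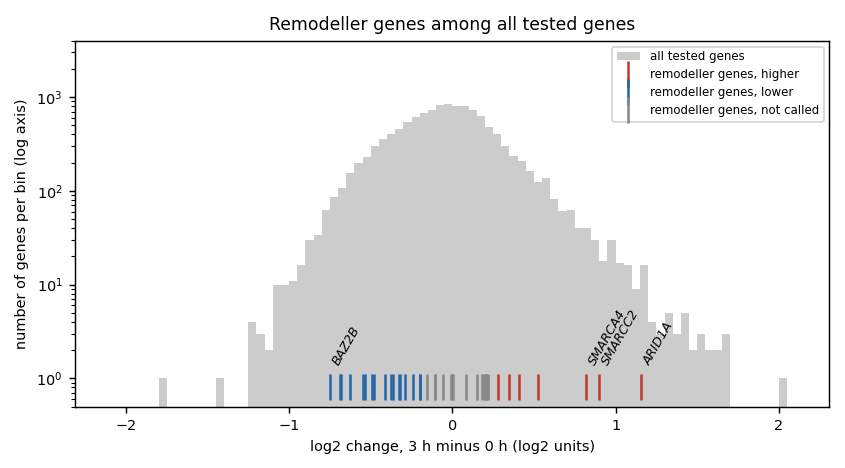
Log2 change (3 h minus 0 h, horizontal) of all 12221 tested genes, as the number of genes per bin on a log axis, with a tick for each of the 38 remodeller genes coloured by its call. The remodeller genes run from -0.75 for BAZ2B to 1.15 for ARID1A.

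Of the SWI/SNF motor genes, only SMARCA4 was called on its brightest probe set. SMARCA4, which encodes the ATPase BRG1, had log2 values of 9.26, 9.12 and 9.30 on the 3 h arrays, against 8.42, 8.35 and 8.47 on the 0 h arrays. Every 3 h array lay above every 0 h array, and SMARCA4 was 1.76-fold higher (log2 change 0.82, SE 0.07, n = 3, adjusted p = 5.3e-05). SMARCA2, the alternative ATPase BRM, had 8.94, 8.76 and 8.91 at 3 h, against 9.003, 8.99 and 9.10 at 0 h. The SMARCA2 arrays did not overlap either, but its change of -0.16 (95% interval -0.31 to -0.00) was not called, with an adjusted p of 0.0798. Of its 7 probe sets above the floor 2 were called higher and none lower. With the mean of all 8 of its probe sets, not only the 7 above the floor, SMARCA2 was called higher (0.18, adjusted p = 0.0116). Some other settings called it lower, as given at the end. Its direction is therefore not settled.

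Among the scaffold genes, SMARCC2 (BAF170) had values of 8.09, 7.93 and 7.91 at 3 h, against 7.21, 6.94 and 7.09 at 0 h. It was 1.86-fold higher (log2 change 0.90, SE 0.08, adjusted p = 9.65e-05), with no overlap. Its close relative SMARCC1 (BAF155) had 8.30, 8.30 and 8.18 at 3 h, against 8.04, 8.10 and 8.03 at 0 h, and rose by less (0.21, adjusted p = 0.0162). The SMARCC1 call ended without replicate 1 at 0 h (0.20, adjusted p = 0.0596) or replicate 3 at 0 h (0.20, adjusted p = 0.0526). SMARCB1, a core subunit lost in rhabdoid tumours, stood at 0.00 with an interval of -0.14 to 0.15.

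The SMARCD genes encode alternative BAF60 subunits. SMARCD1 stood at 0.22 (adjusted p = 0.0537) and SMARCD2 at -0.01 (adjusted p = 0.923), neither called, and SMARCD1 was called without replicate 3 at 3 h (0.27, adjusted p = 0.0385). SMARCD3 fell by 0.20 (adjusted p = 0.0316). That call ended without replicate 1 or 2 at 3 h (-0.19 and -0.18), and without replicate 1 or 2 at 0 h (-0.17 and -0.18). SMARCE1, the HMG-box subunit BAF57, had 8.89, 8.93 and 9.02 at 3 h, against 9.17, 9.12 and 9.14 at 0 h. It fell by 0.20 (adjusted p = 0.018), and without replicate 1 at 0 h it was no longer called (-0.19, adjusted p = 0.0673).

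The ARID subunits mark the kind of SWI/SNF complex. ARID1A, which defines the canonical BAF complex and is often mutated in cancers, had values of 8.49, 8.40 and 8.48 at 3 h, against 7.32, 7.41 and 7.19 at 0 h. With a gap between the groups wider than the range within either, it was 2.23-fold higher (log2 change 1.15, SE 0.07, adjusted p = 1.47e-05). On the brightest probe sets it was the only one of the 38 genes to change by over 2-fold, and it was read from the 1 of its 6 probe sets that was above the floor. With the mean of all 6, which includes those under the floor, its change was 0.83. ARID1B, which takes the same place in the complex, had 7.03, 7.04 and 7.23 at 3 h, against 6.99, 6.79 and 6.90 at 0 h. Its change of 0.21 was not called (adjusted p = 0.055), and it was called without replicate 1 at 0 h (0.26, adjusted p = 0.0463). ARID2, a subunit of the PBAF form, had 6.44, 6.33 and 6.73 at 3 h, against 7.10, 7.04 and 7.02 at 0 h. It fell by 0.55 (SE 0.10, adjusted p = 0.00179), with all 3 h arrays below the 0 h arrays and a wider spread at 3 h.

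Among ARID genes outside SWI/SNF, 1 fell and 1 rose. ARID4B, a partner of the SIN3 deacetylase complex, had 7.93, 7.75 and 7.80 at 3 h, against 8.32, 8.33 and 8.30 at 0 h, and fell by 0.49 (SE 0.06, adjusted p = 0.00034). ARID5B, which works with the demethylase PHF2, had 10.76, 10.59 and 10.83 at 3 h, against 10.45, 10.49 and 10.40 at 0 h. Its arrays did not overlap, and it rose by 0.28 (adjusted p = 0.0109). The transcription factor genes ARID3A and ARID3B stood at 0.20 and 0.18 without a call. ARID3A was 5.59 on one 3 h array and 4.98 and 4.78 on the others, and its change turned to -0.04 without replicate 1 at 3 h. ARID3B was called without replicate 3 at 3 h (0.24, adjusted p = 0.0274). ARID5A, whose protein binds inflammatory mRNAs, stood at -0.00 (adjusted p = 0.985).

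**Figure D2:**
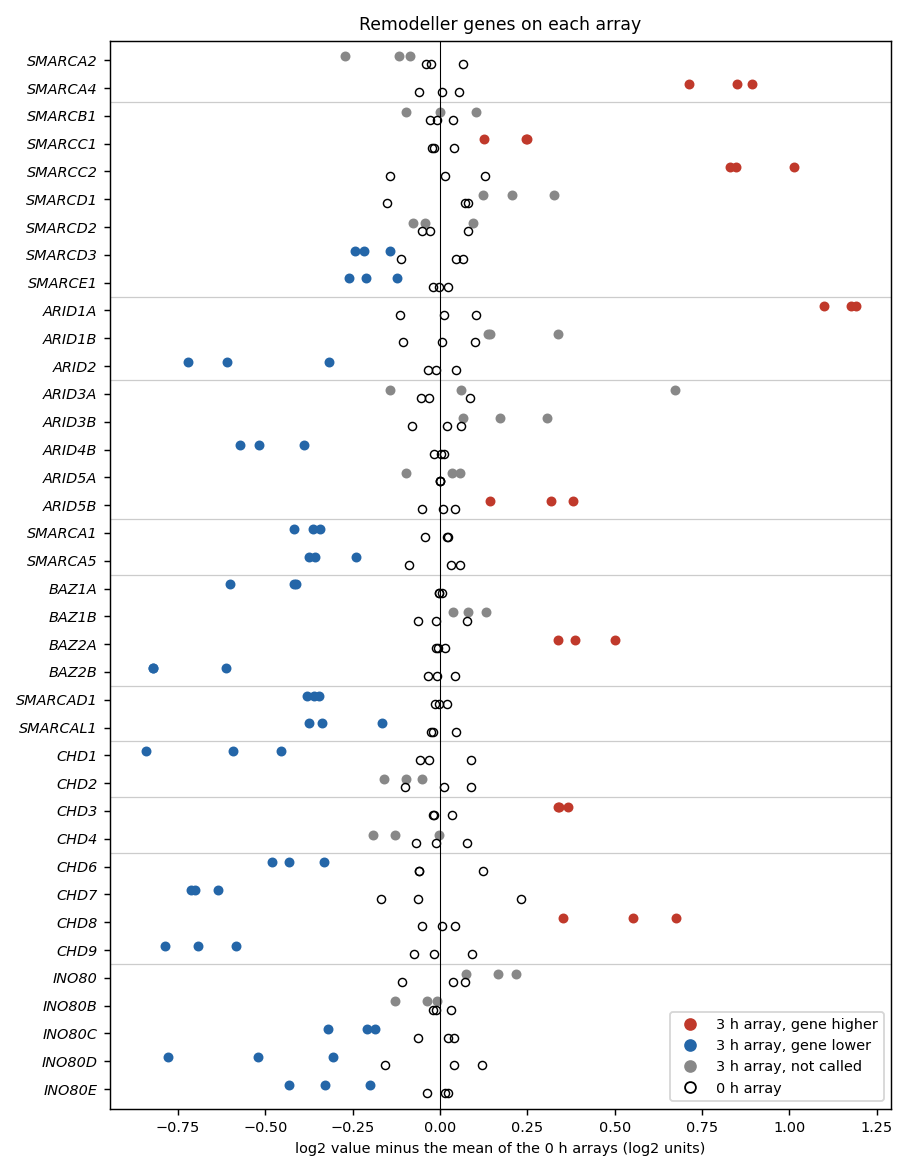
Log2 value on each array minus the mean of the 0 h arrays (horizontal) for the 38 tested remodeller genes, grouped by family. Filled points are the 3 h arrays, coloured by call, and open points the 0 h arrays. ARID1A, SMARCC2 and SMARCA4 stand furthest right, and BAZ2B, CHD9 and CHD7 are among those furthest left.

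Both ISWI motor genes fell. SMARCA1 (SNF2L) had 8.39, 8.44 and 8.47 at 3 h, against 8.83, 8.83 and 8.76 at 0 h, a fall of 0.37 (SE 0.05, adjusted p = 0.000623). SMARCA5 (SNF2H) had 8.37, 8.23 and 8.25 at 3 h, against 8.67, 8.64 and 8.52 at 0 h, a fall of 0.32 (SE 0.06, adjusted p = 0.00334). In neither gene did the groups overlap. SMARCAD1, a remodeller of replicating and broken DNA, fell by 0.36 (adjusted p = 0.000519), and SMARCAL1, which restarts stalled replication forks, by 0.29 (adjusted p = 0.00701).

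The BAZ genes, whose bromodomain proteins partner the ISWI motors, went different ways. BAZ2B had 6.33, 6.54 and 6.33 at 3 h, against 7.19, 7.14 and 7.11 at 0 h, and fell by 0.75 (SE 0.07, adjusted p = 9.84e-05). BAZ2A, the NoRC subunit that silences ribosomal DNA, had 7.92, 8.08 and 7.96 at 3 h, against 7.59, 7.57 and 7.57 at 0 h, and rose by 0.41 (SE 0.06, adjusted p = 0.000669). The arrays of the groups were apart in both genes. BAZ1A (ACF1) had 8.62, 8.43 and 8.62 at 3 h, against 9.04, 9.03 and 9.03 at 0 h, and fell by 0.48 (SE 0.07, adjusted p = 0.000504). BAZ1B (WSTF) stood at 0.08, with an interval of -0.05 to 0.22, and its arrays overlapped.

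Of the CHD genes, CHD1, CHD6, CHD7 and CHD9 fell, and CHD3 and CHD8 rose. CHD1, which binds methylated histone H3 at active genes, had 7.24, 6.98 and 7.37 at 3 h, against 7.92, 7.79 and 7.77 at 0 h, and fell by 0.63 (SE 0.10, adjusted p = 0.000918). Its relative CHD2 stood at -0.10 (adjusted p = 0.218). The NuRD motor gene CHD3 had 8.32, 8.35 and 8.32 at 3 h, against 7.96, 7.97 and 8.02 at 0 h. It rose by 0.35 (SE 0.05, adjusted p = 0.000687), with little spread in either group. CHD4, the other NuRD motor gene, stood at -0.11 (adjusted p = 0.218) on its brightest probe set.

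CHD7, the gene mutated in CHARGE syndrome, had 4.88, 4.95 and 4.87 at 3 h, against 5.82, 5.52 and 5.41 at 0 h, and fell by 0.68 (SE 0.10, adjusted p = 0.00063). Its 3 h values lie close above the floor. CHD9 had 6.79, 6.89 and 6.999 at 3 h, against 7.67, 7.57 and 7.51 at 0 h, and fell by 0.69 (SE 0.07, adjusted p = 0.000154). CHD8, an autism-linked gene whose protein restrains beta-catenin, went the opposite way within this subfamily. It had 7.52, 7.72 and 7.84 at 3 h, against 7.21, 7.17 and 7.12 at 0 h, and rose by 0.53 (SE 0.08, adjusted p = 0.00104). CHD6 fell by 0.42 (adjusted p = 0.00151) with a 3 h mean of 4.58 and a 0 h mean of 4.997, so the size of its fall rests on dim signal at 3 h. CHD5, a mostly neuronal gene, had means of 4.43 at 3 h and 4.40 at 0 h, and ARID3C had 3.41 and 3.24 in the same order, all under the floor.

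Of the INO80 genes, 3 subunit genes fell on their brightest probe sets. INO80D had 5.83, 5.36 and 5.62 at 3 h, against 6.26, 6.18 and 5.98 at 0 h, and fell by 0.53 (SE 0.12, adjusted p = 0.00594). INO80E fell by 0.32 (adjusted p = 0.00472) and INO80C by 0.24 (adjusted p = 0.0106). The motor gene INO80 stood at 0.15 (adjusted p = 0.0935) on its brightest probe set, but was called higher on its 3 others and with the mean of all its probe sets (0.31, adjusted p = 0.00187). INO80B stood at -0.06 (adjusted p = 0.417). In the 3 subunit genes that fell, no 3 h array reached the lowest 0 h array.

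Most genes are covered by several probe sets, and these did not always move alike. In all, 104 probe sets of the 38 genes were above the floor, and in a fit over all 27235 such probe sets 37 were higher and 29 lower. Over all probe sets 25.6% were called higher, 26.1% lower and 51.7% in either direction. No gene had a probe set called higher and another called lower. With any called probe set counted, 16 genes rose and 18 fell. Of the 13 genes not called on their brightest probe set, 8 had another that was higher, 1 another that was lower, and 4 had none. The matching shares over all genes were not computed, and genes with more probe sets have more chances of a call. These counts per gene are therefore descriptions only.

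SMARCA4 was higher on all 6 of its probe sets, by 0.79 to 1.496. Its second brightest read 8.96, 8.90 and 9.03 at 3 h, against 7.52, 7.49 and 7.39 at 0 h, and gave the largest change, 2.82-fold. CHD3 was higher on all 5 (0.26 to 0.66), SMARCC1 on all 4 (0.17 to 0.70) and SMARCC2 on all 3 (0.31 to 0.93). SMARCA1 was lower on all 5, by 0.29 to 0.55 in size. SMARCA5 was lower and ARID5B higher on both of their probe sets. In these 7 genes all probe sets above the floor were called in the same direction.

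CHD4 was not called on its brightest probe set but was called on both of the others. Its brightest read 8.15, 8.21 and 8.33 at 3 h, against 8.33, 8.27 and 8.42 at 0 h. The second read 8.33, 8.35 and 8.59 at 3 h, against 7.72, 7.68 and 7.51 at 0 h, a change of 0.79 (adjusted p = 0.000262). The third read 8.21, 8.24 and 8.44 at 3 h, against 7.37, 7.36 and 7.37 at 0 h, a change of 0.93 (adjusted p = 5.45e-05). Both of these rose with no overlap, while the arrays of the brightest overlapped.

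INO80 was called higher on its 3 dimmer probe sets (0.27, 0.35 and 0.46), BAZ1B on 2 (0.74 and 0.27), SMARCB1 on 2 (0.31 and 0.25) and SMARCD2 on 1 (0.63). The second probe set of ARID1B was higher by 0.41 (adjusted p = 0.00134) and that of ARID3B by 0.51 (adjusted p = 0.00191), while that of CHD2 fell by 0.25 (adjusted p = 0.0426). With the mean of all probe sets ARID1B stood at 0.31 and ARID3B at 0.43, both called higher. SMARCA2 ran from -0.16 to 0.45 over 7 probe sets, 2 of them called higher. The called falls of SMARCE1, BAZ1A, ARID4B and SMARCAD1 rested on some of their probe sets. Not called were 4 of 6 for SMARCE1, and 2 of 4 each for BAZ1A, ARID4B and SMARCAD1. Those of SMARCAD1 stood at -0.21 and -0.16 (adjusted p = 0.0508 and 0.0748). The third probe set of BAZ2B stood at 0.30 (adjusted p = 0.0685), the second of CHD7 at -0.10 (adjusted p = 0.464) and the second of BAZ2A at 0.09 (adjusted p = 0.521). In 21 of 27 genes with several probe sets above the floor, the mean change of the dimmer ones lay above that of the brightest, by a median of 0.20. Over 7120 such genes of the series the share was 60.2% and the median 0.06. Where the probe sets lie on each transcript was not analysed here.

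**Figure D3:**
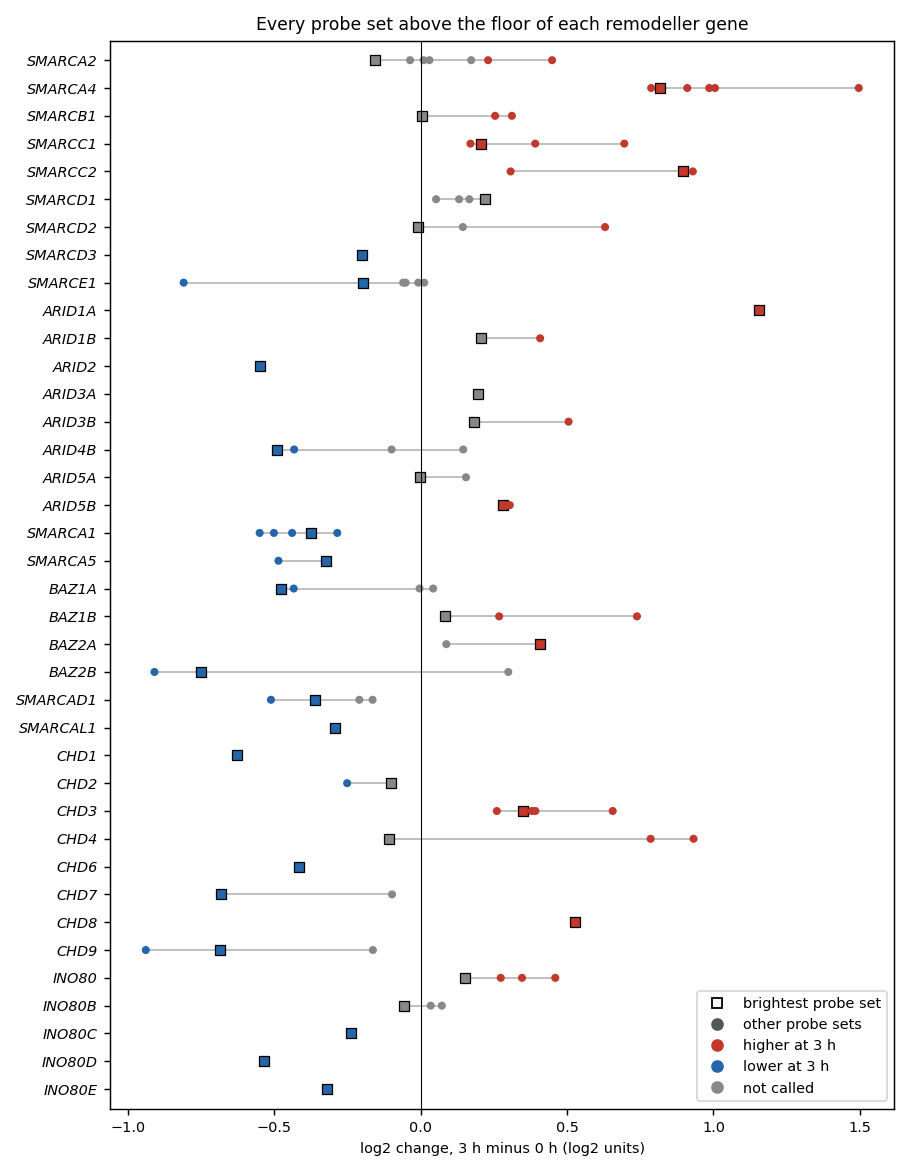
Log2 change (3 h minus 0 h, horizontal) of all 104 probe sets above the floor for the 38 tested remodeller genes, with squares for the brightest probe set of a gene, circles for the others and colours for the call. All 6 SMARCA4 probe sets lie between 0.79 and 1.496, whereas those of CHD4 run from -0.11 to 0.93.

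Related genes were set against each other within each array, in 11 pairs chosen with their values known. Paired genes can replace each other in a complex or share a subfamily, except ARID1A and ARID2, which belong to different forms of SWI/SNF. On the brightest probe sets, the log2 difference of SMARCA4 minus SMARCA2 was 0.36 ± 0.04 at 3 h and -0.62 ± 0.03 at 0 h (SD, n = 3 each), a change of 0.98. ARID1A minus ARID2 was 1.96 ± 0.18 at 3 h and 0.25 ± 0.10 at 0 h, a change of 1.70. These 2 pairs, and ARID1A minus ARID1B with a change of 0.95, had no overlap between the groups. CHD8 minus CHD9 changed by 1.21, BAZ2A minus BAZ2B by 1.16, SMARCC2 minus SMARCC1 by 0.69 and CHD3 minus CHD4 by 0.46. BAZ1A minus BAZ1B changed by -0.56, CHD1 minus CHD2 by -0.53 and CHD7 minus CHD6 by -0.27. All of these had a two-sided exact permutation p of 0.1, the smallest possible here, so none can pass 0.05. For the ISWI pair, SMARCA1 minus SMARCA5 was 0.15 ± 0.11 at 3 h and 0.20 ± 0.04 at 0 h, a change of -0.05 with overlapping arrays (exact permutation p = 0.7). The differences show unequal change only, since levels of different probe sets cannot be compared. In 4 of the pairs without overlap the direction can turn over on other probe sets. The dimmer CHD4 probe sets changed by 0.79 and 0.93, and CHD3 by at most 0.66. The second CHD7 probe set changed by -0.10, less than CHD6 at -0.42. SMARCC2 changed by 0.31 on its second probe set and SMARCC1 by 0.70 on one of its own dimmer probe sets, and BAZ2A changed by 0.09 and BAZ2B by 0.30 on their dimmest.

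**Figure D4:**
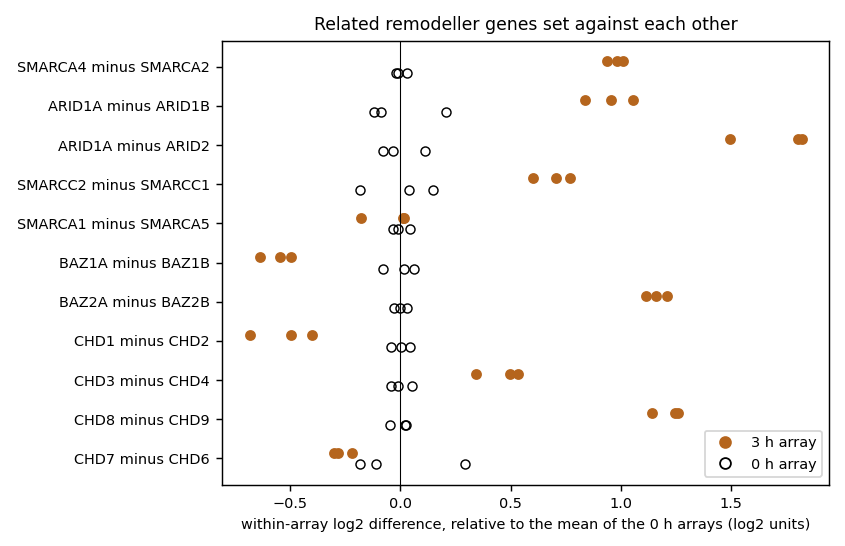
Within-array log2 difference between related remodeller genes, relative to its mean over the 0 h arrays (horizontal), with filled points for the 3 h arrays and open points for the 0 h arrays. The 3 h arrays of ARID1A minus ARID2 lie furthest from 0, and those of SMARCA1 minus SMARCA5 overlap the 0 h arrays.

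Partner subunits outside the symbol rule were taken from lists of 72 genes, of which 67 were above the floor. Each was read from its brightest probe set only, and its other probe sets were not checked as for the remodeller genes. Across them 20 rose and 20 fell (29.9% each, against 20.6% and 30.8% of all tested genes), with a median change of 0.01. Among 16 further SWI/SNF subunits 5 rose and 3 fell. ACTB, actin, which is also a subunit, was 13.28, 13.31 and 13.31 at 3 h, against 12.68, 12.69 and 12.73 at 0 h, and rose by 0.60 (adjusted p = 6.25e-05). ACTL6A, the actin-related subunit BAF53A, fell by 0.48 (adjusted p = 0.000241), and BICRA, which marks the non-canonical form, rose by 0.45. PBRM1, the defining subunit of PBAF beside ARID2, was not called (0.14, adjusted p = 0.253).

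Of 10 NuRD partners 3 rose and 1 fell (30% and 10%, against 20.6% and 30.8% of all tested genes). The shared subunit genes RBBP4 and RBBP7 were counted with the ISWI partners instead, where RBBP4 rose by 0.18 and RBBP7 fell by 0.17. GATAD2A rose by 0.63, MBD3 by 0.74 and GATAD2B by 0.69 (largest adjusted p = 0.000399). MTA3 fell by 0.27 (adjusted p = 0.00615). MBD2, which can take the place of MBD3, the scaffold genes MTA1 and MTA2 and the deacetylase genes HDAC1 and HDAC2 were not called. PBRM1, MTA1, MTA2, MTA3, MBD2, HDAC1, HDAC2, RBBP4 and RBBP7 were named after their values were seen. Of 7 ISWI partners 2 rose and 3 fell (28.6% and 42.9%, against the same shares of all tested genes). HMGXB4 rose by 0.57, while BPTF, the largest NURF subunit, fell by 0.47 and RSF1, a partner of SMARCA5, by 0.46.

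The partners in the INO80, SRCAP and TIP60 complexes were divided, with 6 of 18 higher and 5 lower (33.3% and 27.8%). Among all tested genes 20.6% were higher and 30.8% lower, which also applies to the lists below. YEATS4 and ACTR6 fell by 0.53 and 0.50, and the acetyltransferase gene KAT5 (TIP60) rose by 0.49. Other SNF2-family helicases fell in 8 of 11 cases (72.7%) and rose in 1 (9.09%), with a median of -0.30. HELLS, a remodeller needed for DNA methylation, was 6.77, 6.78 and 6.98 at 3 h, against 7.66, 7.78 and 7.66 at 0 h, and fell by 0.85 (adjusted p = 6.32e-05). SHPRH, a helicase and ubiquitin ligase, fell by 0.90, and RAD54L2 was the 1 that rose, by 0.64. Of 5 other ARID-domain genes none fell and 3 rose (60%), among them the demethylase gene KDM5C (0.68) and JARID2, a Polycomb partner (0.66).

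**Figure D5:**
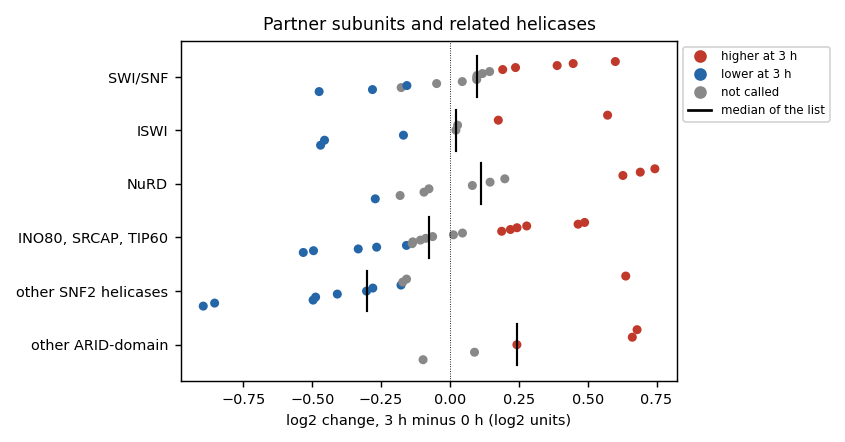
Log2 change (3 h minus 0 h, horizontal) of 67 tested genes in 6 lists of partner subunits, other helicases and other ARID-domain genes, with a point per gene coloured by call and a bar at the median of each list. The bar of the other SNF2-family helicases is at -0.30 and that of the other ARID-domain genes at 0.24.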

How the data were processed

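Each of the 6 RNA samples was labelled by 3′ in vitro transcription and read on its own Affymetrix array, as the labels' protocols describe. The deposited log2 values, 1 per probe set and array (49372 probe sets), were used as given. The log2 scale was read from the values, which run from 1.54 to 14.3. MAS5 and RMA are named in the submitters' processing notes, with no role or order. The genome build and any filter are not given in the sources used. Such normalization hides changes of total RNA.

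Groups came from the sample titles. Controls (79 probe sets) were not tested. Of the others, 44988 had 1 symbol in the platform annotation, 1832 several and 2473 none; only those with 1 were named. Each gene was represented by its brightest probe set, and genes under the 40th percentile of mean level (4.64) were left out. The test was limma 3.58.1 (lmFit, then eBayes; R 4.3.3). Adjustment by Benjamini and Hochberg covered 12221 genes, at a threshold of 0.05. "Rose" and "fell" are used of calls only, and changes are 3 h minus 0 h. Adjusted p-values of other probe sets come from the fit over 27235 probe sets. The code was tested on simulated data.

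All 38 tested genes are described, with values per array for the leading calls, and up to 3 called genes per partner list, by smallest p. Members and lists were chosen with earlier results of these data known. Same-numbered arrays of the groups did not deviate together (correlations of -0.04, -0.02 and -0.19), so the numbers were not used as pairs. Figures were drawn with matplotlib 3.10.9. The number of arrays limits the precision.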

Additional observations from a re-analysis of the deposited data

How the results depend on the processing

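The 8 higher and 17 lower calls among the remodeller genes depend on several settings. A floor at the 60th percentile gave 11 higher and 14 lower of 34 genes, against 2204 and 3351 of all 8890 genes tested. A threshold of 0.01 gave 6 and 14, a description only, since the counts over all genes at that threshold are not given here. For eBayes with trend and robust the counts were 10 and 18, against 2617 and 4021 of all 12221 genes. With the mean of all probe sets, including those under the floor, 15 genes were higher and 14 lower, against 3066 and 3419 of 12221. The median change of the remodeller genes then went to 0.057. With probe sets lacking the s or x suffix, a setting chosen after seeing the data, 9 were higher and 12 lower of 36 genes, with a median of 0.038. These counts too are descriptions, as those over all genes are not given here. Without the a suffix too, only 8 of the genes were left, with 1 higher, 2 lower and a median of -0.075. Few genes have such a probe set, and of the 3803 tested 697 were higher and 995 lower. Median centring moved the median to -0.14. Leaving out 1 array gave 7 to 10 higher, 15 to 17 lower and a median of -0.14 to -0.086. The counts over all genes moved as well. Without replicate 1 at 0 h, 8 and 15 stood against 2081 and 3114 of all 12221 genes. Without replicate 3 at 3 h, 10 and 17 stood against 2525 and 3627. The replicate block gave 8 higher and 16 lower, against 2336 and 3502 of all 12221 genes. It ended only the call of SMARCD3 (adjusted p = 0.0671).

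Directions turned mostly in genes without a call. SMARCB1 stood at -0.020 with repeated quantile normalization, -0.035 with median centring and -0.0080 with array weights. Without 1 array it ran from -0.047 to 0.052, SMARCD2 from -0.061 to 0.031, ARID5A from -0.032 to 0.046 and ARID3A from -0.041 to 0.37. With the mean of all probe sets SMARCD2 stood at 0.25, ARID5A at 0.10, SMARCA2 at 0.18, CHD4 at 0.54 and INO80B at 0.016, and of these SMARCD2, SMARCA2 and CHD4 were called higher (adjusted p = 0.0119, 0.0116 and 0.000148). SMARCA2 was instead called lower with median centring (-0.19, adjusted p = 0.0382) and with trend and robust (-0.16, adjusted p = 0.0309). Without the s or x suffix SMARCD2 stood at 0.14, SMARCA2 at 0.17 and INO80B at 0.034, and the called falls of BAZ1A and ARID4B turned to 0.042 and 0.14. Single probe sets gave 0.14 for ARID4B, 0.15 for ARID5A, 0.042 for BAZ1A, 0.30 for BAZ2B, 0.79 and 0.93 for CHD4, 0.034 and 0.072 for INO80B, 0.17, 0.23, 0.0096, 0.45 and 0.030 for SMARCA2, 0.14 and 0.63 for SMARCD2 and 0.012 for SMARCE1. The cause was not tested. With the mean of all probe sets the calls of INO80D (-0.21), CHD7 (-0.081) and SMARCD3 (-0.075) ended. Only 1 of 2 probe sets of INO80D, 2 of 4 of CHD7 and 1 of 2 of SMARCD3 were above the floor. These 3 means therefore mix in probe sets under it. Sizes moved by over 1.5 times for SMARCC2 (0.55), BAZ2B (-0.45), ARID4B (-0.19), BAZ1A (-0.22), CHD6 (-0.18) and SMARCC1 (0.37), which stayed called. Of the CHD6 probe sets, 1 of 2 was above the floor. Without the s or x suffix BAZ2A (0.087), CHD7 (-0.098) and SMARCE1 (-0.052) lost their calls. SMARCA4, ARID1A, SMARCC2, CHD3, CHD8, CHD9 and SMARCA1 kept their direction and call under each setting run in which they were tested, except CHD9 on its dimmest probe set (-0.16). Low signal limits CHD6 and CHD7, whose 3 h values lie near the floor.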
